A study of Saccharomyces cerevisiae with 12 samples.

Results

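Karyopherins are the carrier proteins that move cargo through the nuclear pore, and 10 of their genes in the budding yeast Saccharomyces cerevisiae are described here, out of 6692 gene entries in the deposited count table. The set was taken by identifier and holds NMD5 (YJR132W), SXM1 (YDR395W), MSN5 (YDR335W), KAP95 (YLR347C), SRP1 (YNL189W), KAP104 (YBR017C), KAP114 (YGL241W), KAP123 (YER110C), PSE1 (YMR308C) and CRM1 (YGR218W). It was put together around NMD5, which had been seen to be much lower in cells without TAF14, so the NMD5 values below are a description and carry no test. All 10 genes passed the filter on low counts, which kept 5918 entries.

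The series measured RNA by sequencing after removal of ribosomal RNA, in 12 libraries of 4 groups of 3. All 4 groups were BY4741 yeast and each carried a pRS313 plasmid with HA3-SSN6 in its name. The deletion strain lacked taf14 and held the empty vector, pRS313-HA3-SSN6. The W81A strain lacked taf14 and held pRS313-taf14W81A-HA3-SSN6. The TAF14 strain lacked taf14 and held pRS313-TAF14-HA3-SSN6 with full-length TAF14, and wild type had an intact TAF14 and the empty vector. TAF14 encodes a small YEATS-domain protein that binds acylated histones and is a subunit of TFIID, TFIIF and several chromatin remodelling complexes, and the altered tryptophan lies in the pocket of that domain that holds the acylated lysine. In the W81A and TAF14 strains the gene came from a plasmid and not from its own locus. Nothing in the labels tells whether the 3 replicates of a group came from separate cultures, and the p-values here therefore cover the spread between libraries, which may be technical.

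Karyopherins of the importin-beta family bind cargo on one side of the pore, pass through by touching the nucleoporins that line it, and let go on the other side. The small GTPase Ran sets the direction: Ran-GTP in the nucleus makes importins release cargo and lets exportins pick it up. Importin alpha is an adaptor that links cargo with a classical nuclear localization signal to importin beta. In yeast NMD5 carries the stress kinase Hog1, the calcineurin-regulated factor Crz1 and the elongation factor TFIIS (DST1) into the nucleus, and SXM1 is a close relative of it in sequence.

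The start regions of 2 members are shown because NMD5 had the fall described here and SXM1 is its close relative. Each runs from 250 bases before the start codon to 50 bases of coding sequence, 5′ to 3′ on the gene's strand, and was read from the RefSeq R64 (sacCer3) genome. Capitals mark the start codon ATG and any run of overlapping matches to the TATA box, searched on both strands as TATAAAA, as its variant TATAAAT, and further as TATATAA and its variant TATATAT.
NMD5 (chrX:669272-669571, plus strand): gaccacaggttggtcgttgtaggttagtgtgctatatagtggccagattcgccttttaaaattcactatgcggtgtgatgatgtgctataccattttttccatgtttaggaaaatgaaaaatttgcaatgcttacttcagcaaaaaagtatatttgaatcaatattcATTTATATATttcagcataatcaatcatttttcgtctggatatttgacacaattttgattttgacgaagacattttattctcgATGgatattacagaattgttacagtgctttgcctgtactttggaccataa
SXM1 (chrIV:1263074-1263373, plus strand): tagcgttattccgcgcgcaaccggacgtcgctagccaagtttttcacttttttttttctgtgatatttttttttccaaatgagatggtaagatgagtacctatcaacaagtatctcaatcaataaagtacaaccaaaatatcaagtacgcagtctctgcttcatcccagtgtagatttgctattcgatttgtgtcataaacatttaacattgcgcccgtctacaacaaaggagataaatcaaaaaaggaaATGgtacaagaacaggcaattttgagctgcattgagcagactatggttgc
The NMD5 window held such a run, from 83 to 74 bases before the start codon, and the first bases of the window are the end of the neighbouring gene MNS1. The SXM1 window held none. Over the 250 bases before the start codon, 4 of the 10 members had a TATA box match (NMD5, MSN5, SRP1 and KAP114), against 49.1% of 6001 yeast promoters. Runs of AAAAAAA on either strand were found in 7 of the 10 members and in 47.9% of all promoters, and were not found in NMD5, SRP1 or CRM1. The Cbf1 and Pho4 core CACGTG was found in 1 member, PSE1, and in 2.73% of all promoters. The Reb1 letters TTACCCG (7.03% of all promoters) and the Gcn4 letters TGACTCA (2.17%) were in none of the 10. These matches are letters in a window, on both strands, and say nothing of binding.

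The libraries held 9.01 to 11.7 M counts. TAF14 itself read 0.437, 0.199 and 0.484 CPM (counts scaled to 1000000 per library, with library sizes adjusted for composition) in the deletion strain, 223, 203 and 192 in the W81A strain, 355, 143 and 302 in the TAF14 strain, and 132, 129 and 148 in wild type. The TAF14 strain's replicate 2 was thus at the wild-type level of the gene that its plasmid carries. That library also shared with the 3 deletion libraries a raised level of genes on chromosome XII: the median gene of that chromosome stood 0.439 to 0.548 (log2) above its wild-type mean in those 4 libraries and between -0.00785 and 0.0246 in the other 8. KAP95 lies on chromosome XII and the other members do not, so its values are also given against that shift. For some genes, but not all, whose calls turn on TAF14 replicate 2, values without it are also given. LEU2, URA3 and MET17, which BY4741 lacks, had 0 counts in every library, and the a-cell receptor gene STE2 read 109 to 833 CPM against 0.546 to 5.33 for the alpha-cell receptor gene STE3.

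NMD5 transcripts were far less abundant when TAF14 was absent. They read 69.2, 65.9 and 67.7 CPM in the deletion strain, 174, 178 and 181 in the W81A strain, 213, 209 and 216 in the TAF14 strain, and 204, 191 and 202 in wild type. The deletion libraries were the 3 lowest and lay far from every other library. In such bulk samples less RNA per cell and fewer cells with the RNA cannot be told apart. The means were 67.6 ± 1.66 CPM in the deletion strain, 177.8 ± 3.42 in the W81A strain, 212.4 ± 3.32 in the TAF14 strain and 199.0 ± 6.71 in wild type (SD, n = 3 each). Within the deletion strain the coefficient of variation was 2.45%. Per kilobase of coding sequence the levels were 21.5, 56.5, 67.5 and 63.2 CPM in the deletion, W81A, TAF14 and wild-type groups.

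On the log2 scale the change of NMD5 in the deletion strain was -1.56 ± 0.050 against wild type, -1.65 ± 0.050 against the TAF14 strain and -1.40 ± 0.050 against the W81A strain (± standard error). The fall against wild type was 2.94-fold. Counted from the lowest of 5918 tested genes, these changes had ranks 72, 85 and 44. Smaller differences were seen between the other groups. The W81A libraries lay below all TAF14 and all wild-type libraries, with a log2 change of -0.26 ± 0.047 against the TAF14 strain and one of -0.16 ± 0.048 against wild type. The TAF14 libraries lay above all wild-type libraries by 0.09 ± 0.047. No pair of the 4 groups overlapped. With 3 libraries per group this is a description and not a test, and how many other genes separate in this way was not counted.

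**Figure D1:**
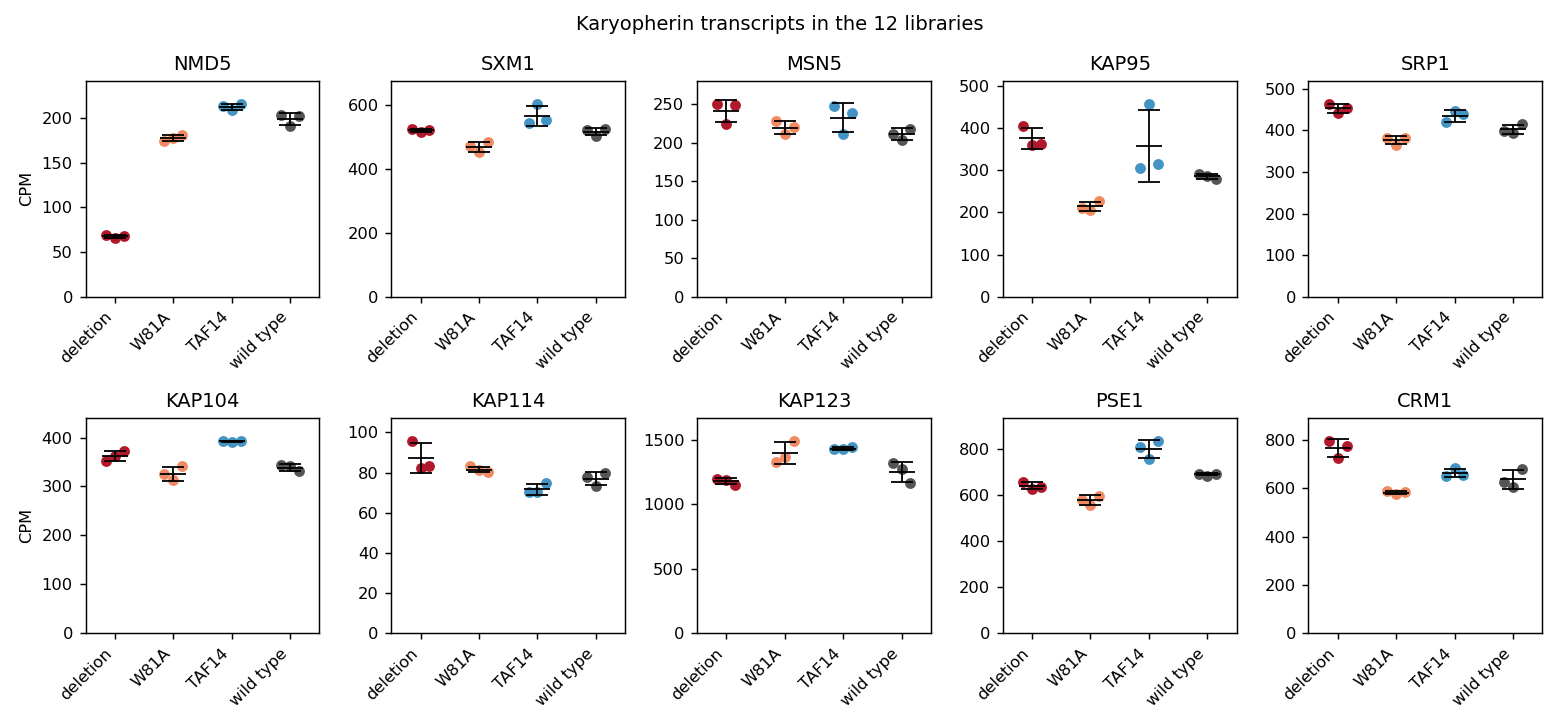
CPM of the 10 karyopherin genes in each library (points), with the mean and SD of each group of 3 (bars), for the deletion strain, the W81A strain, the TAF14 strain and wild type, each axis starting at 0. NMD5 sits between 65.9 and 69.2 CPM in the deletion strain and between 174 and 216 CPM in the other 9 libraries, while the TAF14 strain's replicate 2 is the highest KAP95 point at 457 CPM.

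None of the other 9 karyopherins had a change near the size of the NMD5 fall. Against wild type, 5 of the 9 were higher in the deletion strain and 0 were lower, with a median log2 change of 0.17, where 24.0% of all tested genes were called higher and 24.9% lower at an adjusted p below 0.05 (48.9% in all). CRM1, SRP1, KAP95, MSN5 and KAP114 were the 5, and the count fell to 2 without wild type replicate 1, wild type replicate 2 or deletion replicate 1. Against the TAF14 strain the same 9 split into 2 higher (KAP114 and CRM1) and 2 lower (KAP123 and PSE1), beside 24.1% and 24.8% of all genes (48.9% in all). By DESeq2 4 were lower there, with SXM1 and KAP104 added (DESeq2 adjusted p 0.0435 and 0.0498). Against the W81A strain 6 were higher (SXM1, KAP95, SRP1, KAP104, PSE1 and CRM1) and 1 was lower (KAP123), beside 22.5% and 22.7% of all genes (45.2% in all). The 6 became 3 without deletion replicate 3, W81A replicate 1 or W81A replicate 2, and 4 with no filter on low counts. The 3 comparisons share the deletion libraries and are therefore not separate evidence. Of the 5 calls against wild type, the CRM1 call held with each library left out in turn.

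SXM1, the close relative of NMD5 that carries the La protein and ribosomal proteins, read within the wild-type range in the deletion strain. It read 524, 513 and 522 CPM in the deletion strain, 470, 453 and 484 in the W81A strain, 543, 602 and 553 in the TAF14 strain, and 520, 502 and 525 in wild type. The deletion and wild-type libraries overlapped, with a log2 difference of 0.01 ± 0.056 (edgeR adjusted p = 0.891). The W81A libraries were the lowest of the 12 and lay below the TAF14 libraries, with a log2 change of -0.27 ± 0.056 (edgeR adjusted p = 0.00278). Against wild type edgeR called SXM1 lower in the W81A strain without TAF14 replicate 2 (-0.14, edgeR adjusted p = 0.0405) but not with all libraries (edgeR adjusted p = 0.0878). The deletion strain was higher than the W81A strain by 0.15 ± 0.056 (edgeR adjusted p = 0.0462), a call lost without any of 8 single libraries (highest edgeR adjusted p 0.149). Those were wild type 1 and 2, deletion 1 and 3, TAF14 3 and W81A 1, 2 and 3.

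KAP114 carries the TATA-binding protein and core histones into the nucleus. It read 95.8, 82.4 and 83.2 CPM in the deletion strain, 83.1, 81.3 and 80.3 in the W81A strain, 70.1, 70.2 and 74.8 in the TAF14 strain, and 77.7, 73.6 and 79.8 in wild type. The deletion libraries were above all TAF14 and wild-type libraries. Its log2 change in the deletion strain was 0.28 ± 0.067 against the TAF14 strain (edgeR adjusted p = 0.00353) and 0.18 ± 0.066 against wild type (edgeR adjusted p = 0.0404). The call against wild type was lost without deletion 1, the highest library (0.10, edgeR adjusted p = 0.174), and also without wild type 1 or 2 or any 1 of the W81A libraries (edgeR adjusted p from 0.0531 to 0.134), and with the 6 libraries of the comparison alone (edgeR adjusted p = 0.0599). KAP114 was 0.19 ± 0.067 higher in the W81A strain than in the TAF14 strain (edgeR adjusted p = 0.0473), which was lost when any single library other than wild type 3, deletion 1 or TAF14 3 was left out (highest edgeR adjusted p 0.127), and likewise with relative log expression scaling (edgeR adjusted p = 0.0609), with chromosome XII left out (edgeR adjusted p = 0.0634), with the replicate block (edgeR adjusted p = 0.0505) and in DESeq2 (DESeq2 adjusted p = 0.0791).

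KAP123 and PSE1 are the importins best known for ribosomal proteins, and PSE1 also carries transcription factors such as Pho4 and Aft1. KAP123 read 1195, 1192 and 1151 CPM in the deletion strain, 1332, 1369 and 1493 in the W81A strain, 1427, 1429 and 1443 in the TAF14 strain, and 1320, 1271 and 1167 in wild type. Per kilobase of coding sequence KAP123 had the highest mean of the 10 members in every group, from 353 CPM in the deletion strain to 429 in the TAF14 strain. The deletion libraries were below all W81A and TAF14 libraries and overlapped wild type. KAP123 fell in the deletion strain by 0.28 ± 0.065 (log2) against the TAF14 strain (edgeR adjusted p = 0.00308) and by 0.25 ± 0.065 against the W81A strain (edgeR adjusted p = 0.00815). Against wild type the log2 difference was -0.09 ± 0.065 (edgeR adjusted p = 0.284).

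PSE1 was lower in the W81A strain than in every other group. It read 657, 628 and 637 CPM in the deletion strain, 580, 559 and 599 in the W81A strain, 809, 758 and 837 in the TAF14 strain, and 693, 686 and 693 in wild type. No pair of groups overlapped, and the order was W81A, deletion, wild type, TAF14. As for NMD5, how many other genes separate in this way was not counted. PSE1 fell in the W81A strain by 0.47 ± 0.056 (log2) against the TAF14 strain (edgeR adjusted p = 5.23e-05) and by 0.25 ± 0.056 against wild type (edgeR adjusted p = 0.00463). It fell in the deletion strain by 0.32 ± 0.056 against the TAF14 strain (edgeR adjusted p = 0.000396). The deletion strain stood 0.15 ± 0.056 above the W81A strain (edgeR adjusted p = 0.0486), and 11 of the 12 single libraries could each remove that call when left out (highest edgeR adjusted p 0.156), all but TAF14 replicate 2. The rise in the TAF14 strain over wild type, 0.21 ± 0.056 (edgeR adjusted p = 0.0209), was lost without any 1 wild-type library or TAF14 replicate 1 or 3 (highest edgeR adjusted p 0.0792), and with those 6 libraries alone (edgeR adjusted p = 0.0878).

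KAP104 carries the mRNA-binding proteins Nab2 and Hrp1 back into the nucleus. It read 353, 363 and 373 CPM in the deletion strain, 325, 313 and 341 in the W81A strain, 393, 391 and 393 in the TAF14 strain, and 344, 341 and 331 in wild type. The TAF14 libraries were the highest, above every other library. KAP104 fell in the W81A strain by 0.27 ± 0.051 (log2) against the TAF14 strain (edgeR adjusted p = 0.00162), and was 0.21 ± 0.051 higher in the TAF14 strain than in wild type (edgeR adjusted p = 0.0136), a call lost with those 6 libraries alone (edgeR adjusted p = 0.0581). The deletion strain differed from wild type by 0.10 ± 0.051 (edgeR adjusted p = 0.125), and with chromosome XII left out of the fit by 0.14, which was called (edgeR adjusted p = 0.0378). Its rise over the W81A strain, 0.15 ± 0.051 (edgeR adjusted p = 0.0262), was lost without deletion replicate 3 or W81A replicate 1 or 2 (edgeR adjusted p 0.0950, 0.0721 and 0.106).

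Importin alpha and importin beta, which work as a pair, were both higher in the deletion strain than in wild type and in the W81A strain. For KAP95, the importin beta gene, the rise against wild type (0.40) was below that of the median chromosome XII gene (0.457). SRP1, the only importin alpha gene of yeast, read 463, 441 and 455 CPM in the deletion strain, 382, 366 and 381 in the W81A strain, 420, 446 and 439 in the TAF14 strain, and 399, 393 and 415 in wild type. The deletion libraries lay above all W81A and wild-type libraries and overlapped the TAF14 libraries. The log2 change of SRP1 was 0.27 ± 0.052 against the W81A strain (edgeR adjusted p = 0.0011) and 0.17 ± 0.052 against wild type (edgeR adjusted p = 0.0147). The call against wild type was lost without wild type replicate 1 or 2 (edgeR adjusted p 0.0525 and 0.0553). In the W81A strain SRP1 fell by 0.21 ± 0.052 against the TAF14 strain (edgeR adjusted p = 0.00803).

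KAP95, importin beta, read 405, 360 and 362 CPM in the deletion strain, 211, 206 and 227 in the W81A strain, 304, 457 and 314 in the TAF14 strain, and 291, 286 and 279 in wild type. The 4 highest values belonged to the 4 libraries with the raised chromosome XII, and the 3 W81A libraries, which do not have it, were the lowest. In the deletion strain the log2 change was 0.40 ± 0.123 against wild type (edgeR adjusted p = 0.0171), where the median chromosome XII gene moved by 0.457, so KAP95 stood -0.06 from that median. This call was lost without deletion replicate 1 (0.34, edgeR adjusted p = 0.061), and was kept without TAF14 replicate 2 (0.39, edgeR adjusted p = 4.99e-05). Against the W81A strain the change was 0.81 ± 0.124 (edgeR adjusted p = 0.000212), which was 0.38 above the chromosome XII median of 0.431. Against the TAF14 strain it was 0.07 with all libraries, where the chromosome XII median was 0.253, and 0.28 without TAF14 replicate 2 (edgeR adjusted p = 0.00229), where that median was 0.475. KAP95 thus stood -0.188 and -0.195 from the chromosome XII median in those fits.

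KAP95 was also lower in the W81A strain, whose libraries do not carry the chromosome XII shift. Against the TAF14 strain the log2 change was -0.74 ± 0.124 (edgeR adjusted p = 0.000661), and without TAF14 replicate 2, when none of the 5 libraries compared carried the shift, it was -0.53 (edgeR adjusted p = 2.17e-05). Against wild type it was -0.41 ± 0.123 (edgeR adjusted p = 0.0255), with a chromosome XII median of -0.00155. That call was lost without wild type replicate 1 or 2 or W81A replicate 1 or 2 (edgeR adjusted p from 0.0599 to 0.0856), and was kept without TAF14 replicate 2 (edgeR adjusted p = 9.11e-05). The part of the chromosome shift in the deletion strain's higher KAP95 was not tested.

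**Figure D2:**
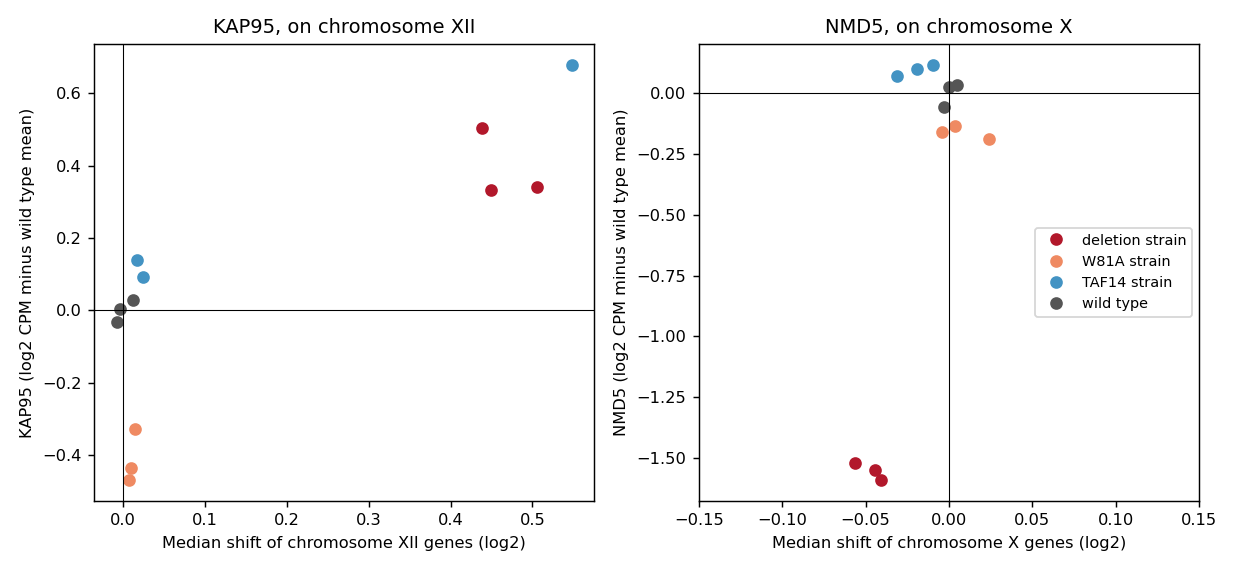
Left, KAP95 in each library (log2 CPM minus the wild-type mean) against the median shift of chromosome XII genes; right, NMD5 against the median shift of chromosome X genes, where it lies, with points coloured by strain. The 3 deletion libraries and 1 TAF14 library lie between 0.439 and 0.548 on the horizontal axis of the left panel, whereas the chromosome X shift in all 12 libraries is between -0.0564 and 0.0237.

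Of the members, CRM1 and MSN5 are exportins. CRM1 exports proteins with leucine-rich export signals, such as the stress factor Yap1, and read 797, 726 and 776 CPM in the deletion strain, 589, 577 and 584 in the W81A strain, 654, 684 and 654 in the TAF14 strain, and 628, 606 and 681 in wild type. All 3 deletion libraries lay above the other 9. CRM1 rose in the deletion strain by 0.26 ± 0.060 (log2) against wild type (edgeR adjusted p = 0.00296), by 0.21 ± 0.060 against the TAF14 strain (edgeR adjusted p = 0.0121) and by 0.39 ± 0.060 against the W81A strain (edgeR adjusted p = 0.00021). All 3 calls held with each library left out. The W81A strain stood -0.19 ± 0.060 from the TAF14 strain (edgeR adjusted p = 0.031), a call lost without any 1 of the 6 libraries compared (edgeR adjusted p from 0.0551 to 0.0875).

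MSN5 exports phosphorylated proteins, among them Far1, Pho4 and Mig1. It read 250, 225 and 248 CPM in the deletion strain, 228, 211 and 220 in the W81A strain, 248, 212 and 239 in the TAF14 strain, and 212, 203 and 218 in wild type. The deletion libraries lay above the wild-type ones, and the W81A and TAF14 libraries overlapped both. The change against wild type was 0.19 ± 0.068 (edgeR adjusted p = 0.0318), lost without wild type replicate 1 or 2 or deletion replicate 1 or 3 (edgeR adjusted p from 0.0745 to 0.104). No other MSN5 comparison passed the threshold in the fit of all genes and libraries. The deletion strain over the W81A strain passed it with chromosome XII left out (0.17, edgeR adjusted p = 0.0441), and the TAF14 strain over wild type passed it without TAF14 replicate 2 (0.20, edgeR adjusted p = 0.0278).

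**Figure D3:**
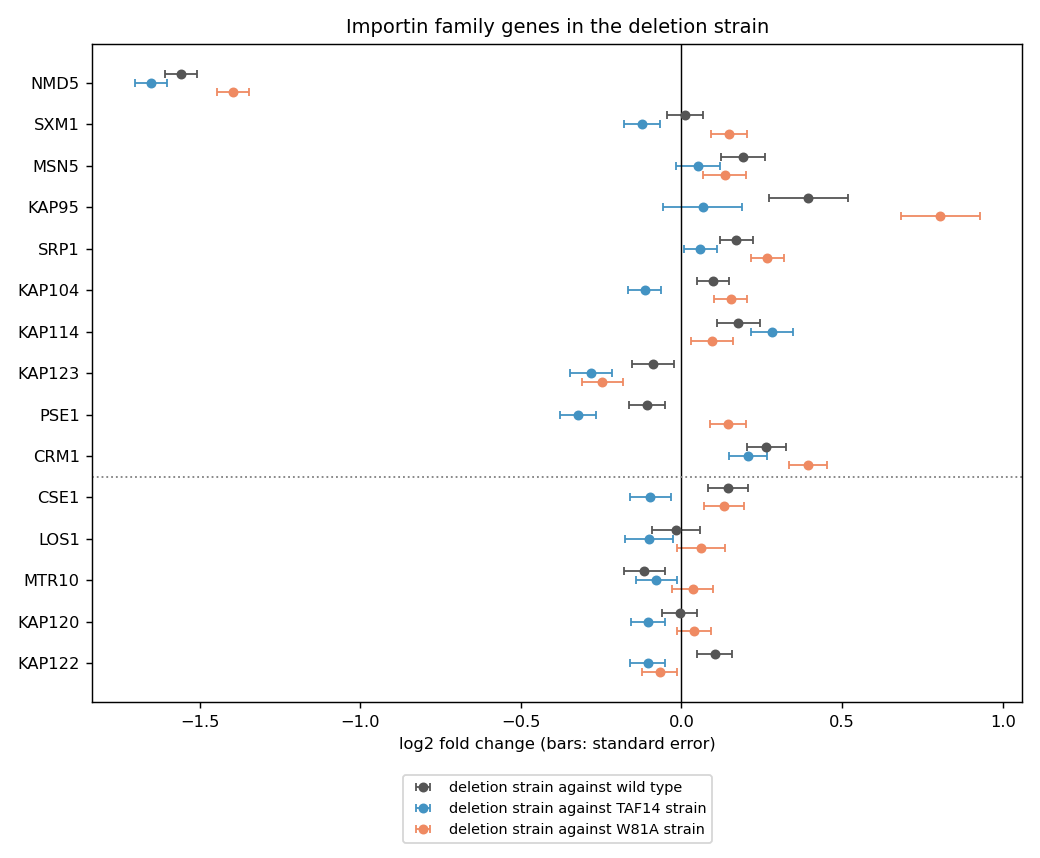
Log2 fold changes with standard errors of the 15 importin-family genes in the deletion strain against wild type (grey), the TAF14 strain (blue) and the W81A strain (orange), the 10 members above the dotted line. NMD5 lies between -1.65 and -1.40, and the other genes lie between -0.32 and 0.81.

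The CPM of the 10 genes were also added up without scaling for gene length, so the sums and shares count reads. They include KAP95, which was highest in the 4 libraries with the raised chromosome XII. The sums were 4693 ± 108 CPM in the deletion strain, 4425 ± 147 in the W81A strain, 5167 ± 88.6 in the TAF14 strain and 4611 ± 68.9 in wild type (SD, n = 3 each). NMD5 made up 1.44% ± 0.010 of that sum in the deletion strain, 4.02% ± 0.096 in the W81A strain, 4.11% ± 0.120 in the TAF14 strain and 4.31% ± 0.10 in wild type.

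In the W81A strain most called members were lower. Against the TAF14 strain 6 of the 9 were lower (SXM1, KAP95, SRP1, KAP104, PSE1 and CRM1) and 1 was higher (KAP114), with a median log2 change of -0.21, where 17.2% of all tested genes were called lower and 15.8% higher (33.0% in all). Against wild type 0 of the 9 were higher by edgeR and 2 were lower, KAP95 and PSE1, where 12.7% of all genes were called higher and 14.5% lower (27.2% in all). The TAF14 strain against wild type had 2 higher, KAP104 and PSE1, and 0 lower, where 8.11% of all genes were called higher and 8.75% lower (16.9% in all). The medians over the 9 were -0.10 and 0.14 in those last comparisons, and the medians over all genes lay between -0.0154 and 0.000492 in all 6 comparisons. In the W81A strain against wild type DESeq2 also called KAP123 higher and SXM1 lower (DESeq2 adjusted p 0.0366 and 0.0499). It also called SXM1, KAP95 and KAP123 higher in the TAF14 strain than in wild type (DESeq2 adjusted p 0.0382, 0.0484 and 0.00959), whereas edgeR on those 6 libraries alone called 0 of the 9.

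**Figure D4:**
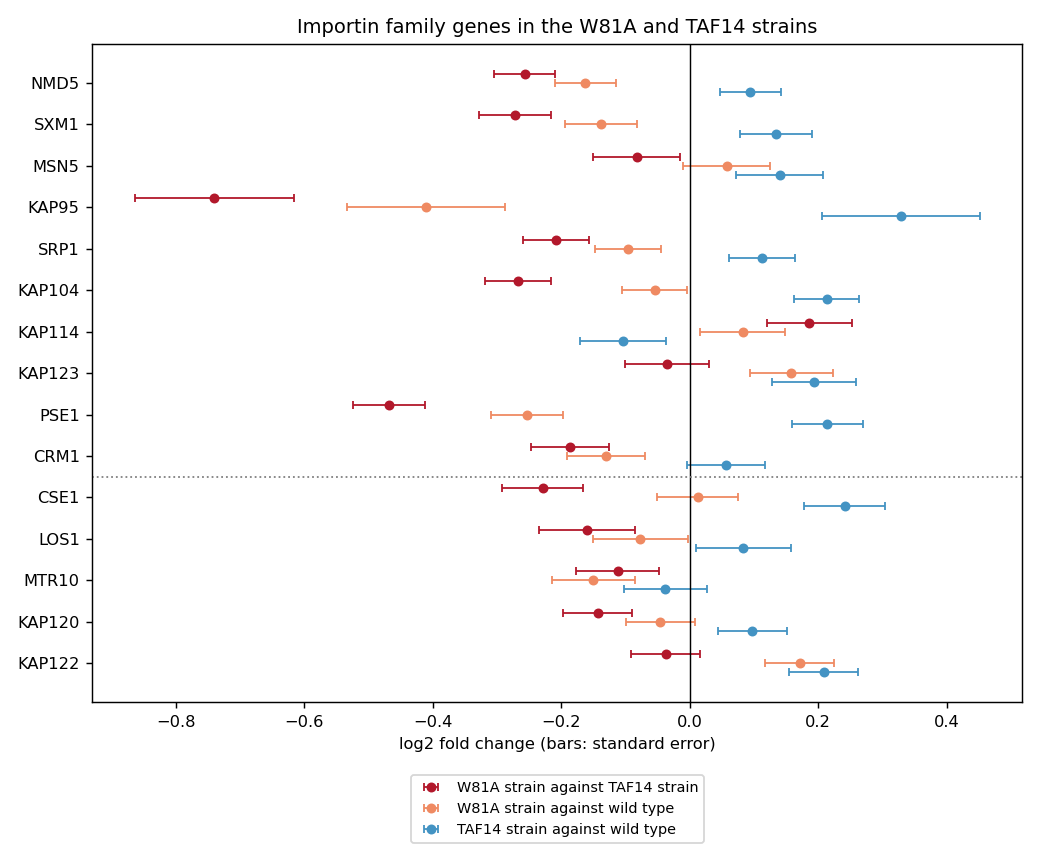
Log2 fold changes with standard errors of the 15 importin-family genes in the W81A strain relative to the TAF14 strain (red), the W81A strain against wild type (orange) and the TAF14 strain against wild type (blue). KAP95 and PSE1 are the 2 members furthest below 0 in the comparison with the TAF14 strain, at -0.74 and -0.47, and NMD5 is at -0.26.

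The 5 importin-beta genes of yeast that the set leaves out were CSE1, LOS1, MTR10, KAP120 and KAP122. CSE1 returns importin alpha to the cytoplasm, LOS1 exports tRNA, MTR10 imports mRNA-binding proteins and KAP122 imports the transcription factor TFIIA. None of the 5 was called in the 3 deletion comparisons by edgeR or DESeq2, where edgeR called 48.9%, 48.9% and 45.2% of all genes against wild type, the TAF14 strain and the W81A strain. CSE1 against wild type had an unadjusted edgeR p below 0.05. Its log2 change there was 0.14 ± 0.063 (edgeR adjusted p = 0.0747). The changes of the 5 ranged from -0.115 to 0.145 against wild type, from -0.105 to -0.0776 against the TAF14 strain and from -0.0675 to 0.132 against the W81A strain. In the other comparisons CSE1 fell in the W81A strain relative to the TAF14 strain, with a log2 change of -0.23 ± 0.063 (edgeR adjusted p = 0.0144). KAP122 was higher in the W81A strain than in wild type, 0.17 ± 0.054 (edgeR adjusted p = 0.0321), and CSE1 and KAP122 were higher in the TAF14 strain than in wild type, 0.24 ± 0.063 and 0.21 ± 0.054 (edgeR adjusted p 0.0218 and 0.0204). These 4 calls were each lost with some single libraries left out (highest edgeR adjusted p from 0.0632 to 0.132).

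The Ran cycle genes had their larger called changes in comparisons with the W81A and TAF14 strains. Of 9 Ran cycle genes, none was called in the deletion strain against wild type by edgeR or DESeq2, and none had an unadjusted p below 0.05, where edgeR called 48.9% of all genes. Without TAF14 replicate 2, GSP1 and GSP2, the 2 Ran genes of yeast, were called higher there (0.24 and 0.29, edgeR adjusted p 0.00798 and 0.00751). GSP1 lies on chromosome XII, whose median gene moved by 0.457 in that fit. GSP2, the less expressed of them, read 28.7, 29.5 and 27.1 CPM in the deletion strain, 40.2, 38.1 and 43.8 in the W81A strain, 11.1, 20.7 and 10.7 in the TAF14 strain, and 22.6, 22.3 and 24.7 in wild type. No pair of groups overlapped, and TAF14 replicate 2 lay between its 2 partners and wild type. Here too, how many other genes separate in this way was not counted. GSP2 rose in the W81A strain by 1.51 ± 0.182 (log2) against the TAF14 strain (edgeR adjusted p = 5.77e-05) and by 0.81 ± 0.173 against wild type (edgeR adjusted p = 0.0037). MOG1, which binds Ran and frees its nucleotide, was also higher in the W81A strain, by 0.48 ± 0.10 against the TAF14 strain and by 0.43 ± 0.10 against wild type (edgeR adjusted p 0.00291 and 0.00639). With the TAF14 strain as the comparison, GSP2 rose in the deletion strain by 0.99 ± 0.186 (edgeR adjusted p = 0.000749). YRB1 fell in that comparison by 0.21 ± 0.072 (edgeR adjusted p = 0.0297), a call lost without deletion replicate 1 or 3 or TAF14 replicate 3 (highest edgeR adjusted p 0.119) and in 1 other setting. GSP1 fell in the W81A strain by 0.57 ± 0.116 against the TAF14 strain (edgeR adjusted p = 0.00256), where the chromosome XII median was -0.203, and by 0.39 without TAF14 replicate 2 (edgeR adjusted p = 0.00105), where it was 0.0113.

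Genes of 13 karyopherin cargoes were looked at next, first those carried by NMD5. HOG1, on chromosome XII, read 261, 281 and 281 CPM in the deletion strain, 173, 173 and 164 in the W81A strain, 203, 305 and 195 in the TAF14 strain, and 221, 227 and 216 in wild type, so the 4 libraries with the raised chromosome XII were again the highest. The HOG1 change in the deletion strain was 0.69 ± 0.128 against the W81A strain (edgeR adjusted p = 0.000847), and 0.31 ± 0.127 against wild type (edgeR adjusted p = 0.0601), beside chromosome XII medians of 0.431 and 0.457. The change against wild type was called without TAF14 replicate 2 (edgeR adjusted p = 0.000106) and by DESeq2. CRZ1 was lower than wild type in each of the other groups. Its change was -0.28 ± 0.071 in the deletion strain and -0.35 ± 0.072 in the TAF14 strain (edgeR adjusted p 0.0056 and 0.00653). In the W81A strain the change was -0.26 ± 0.071 (edgeR adjusted p = 0.0149), a call lost without W81A replicate 1 or 3 (highest edgeR adjusted p 0.0682). DST1 in the deletion strain differed from wild type by -0.02 ± 0.087 (edgeR adjusted p = 0.879).

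Cargoes of other carriers included larger changes. SPT15, the TATA-binding protein carried by KAP114, read 34.4, 36.9 and 38.3 CPM in the deletion strain, 48.2, 44.8 and 46.8 in the W81A strain, 52.2, 49.0 and 52.8 in the TAF14 strain, and 44.1, 45 and 45.8 in wild type. It was lower in all 3 deletion libraries than in the other 9, and fell by 0.30 ± 0.065 (log2) against wild type (edgeR adjusted p = 0.00225). LHP1, the La protein carried by SXM1, fell in the deletion strain by 0.34 ± 0.062 against wild type and by 0.64 ± 0.062 against the TAF14 strain (edgeR adjusted p 0.000635 and 3.49e-06). FAR1, the mating arrest factor exported by MSN5, read 71.2, 64.5 and 65.0 CPM in the deletion strain, 108, 107 and 112 in the W81A strain, 392, 290 and 402 in the TAF14 strain, and 291, 291 and 289 in wild type. Its log2 changes were -2.12 ± 0.103 in the deletion strain and -1.41 ± 0.10 in the W81A strain against wild type (edgeR adjusted p 9.68e-09 and 7.43e-07), and the 4 a-cell genes used as a strain check were called lower in both. YAP1, exported by CRM1, rose by 0.34 ± 0.095 in the deletion strain against wild type (edgeR adjusted p = 0.00974). Over the 13 genes 1 was higher and 4 lower against wild type, beside 24.0% and 24.9% of all genes. DESeq2 called 7 there, with HOG1 and NAP1 added. Against the TAF14 strain 1 was higher and 3 lower, beside 24.1% and 24.8%, and the 1, YAP1 (0.25, edgeR adjusted p = 0.0459), was lost without any single library but TAF14 replicate 1 (highest edgeR adjusted p 0.123). Against the W81A strain 3 were higher and 3 lower, beside 22.5% and 22.7%. HRP1 was among the higher there, at 0.185 ± 0.058 (edgeR adjusted p = 0.0191). That call was lost without deletion replicate 3 or W81A replicate 2 or 3 (highest edgeR adjusted p 0.0634).

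Nucleoporin genes moved in both directions. Of 32 nucleoporin genes, 7 were higher and 8 lower in the deletion strain against wild type, which is 21.9% and 25%, beside 24.0% and 24.9% of all genes. Against the TAF14 strain 5 were higher and 6 lower (15.6% and 18.8%, beside 24.1% and 24.8%), and against the W81A strain 6 and 6 (18.8% each, beside 22.5% and 22.7%). The 3 on chromosome XII, NUP2, POM34 and SEC13, were higher against wild type and the W81A strain. The median gene of that chromosome moved by 0.457 and 0.431 (log2) in those comparisons, and its share of called genes was not counted. The SEC13 call against the W81A strain (edgeR adjusted p = 0.0418) was lost without any of 7 single libraries (highest edgeR adjusted p 0.116). The 29 other nucleoporin genes gave 4 higher and 8 lower against wild type (13.8% and 27.6%). POM34 rose in the deletion strain by 0.57 ± 0.118 (log2) against wild type (edgeR adjusted p = 0.00152), beside a chromosome XII median of 0.457. NUP42, which works in mRNA export, rose by 0.49 ± 0.077 (log2) against wild type (edgeR adjusted p = 0.000206), and by 0.34 ± 0.077 and 0.35 ± 0.077 against the TAF14 and W81A strains (edgeR adjusted p 0.00286 and 0.00288). GLE1, which activates the mRNA export helicase Dbp5, fell by 0.40 ± 0.070 against the W81A strain and by 0.27 ± 0.070 against wild type (edgeR adjusted p 0.000531 and 0.00656). In the W81A strain NUP60, a nuclear basket protein, fell by 0.39 ± 0.065 against wild type (edgeR adjusted p = 0.000768), and SEH1, of the outer ring, rose by 0.30 ± 0.065 (edgeR adjusted p = 0.00394). In the TAF14 strain against wild type none of the 32 was called by edgeR, beside 16.9% of all genes, 2 had an unadjusted p below 0.05 (NDC1 and SEC13), and DESeq2 called 1, NDC1.

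The genes beside NMD5 had smaller changes. MNS1, read in the same direction, ends 228 bases before NMD5, and XPT1, also in the same direction, begins 322 bases after it. In the deletion strain against wild type MNS1 stood at -0.10 (log2) and XPT1 at -0.30 ± 0.072 (edgeR adjusted p = 0.00414), beside -1.56 for NMD5. Against the W81A strain MNS1 stood at -0.27 ± 0.086 and SGM1, beyond XPT1, at -0.26 ± 0.076 (edgeR adjusted p 0.0205 and 0.0146). Both calls were lost without some single libraries (highest edgeR adjusted p 0.0787 and 0.0963). STR2, on the far side of MNS1, was higher in the deletion strain, by 1.03 ± 0.078 against the TAF14 strain and by 0.29 ± 0.075 against wild type (edgeR adjusted p 3.64e-07 and 0.00677). It was also low in the TAF14 strain, with a log2 change of -0.74 ± 0.078 against wild type (edgeR adjusted p = 6.99e-05). Mean STR2 levels were 98.4, 69.4, 48.1 and 80.6 CPM in the deletion, W81A, TAF14 and wild-type groups. Over the 21 other tested genes within 25 kb, the medians were -0.103 against wild type, 0.14 against the TAF14 strain and -0.0791 against the W81A strain, and the lowest changes were IML1 at -0.503 against wild type and YJR128W at -0.435 against the W81A strain. None of the 15 importin-family genes overlaps another gene in the R64 annotation or matches another gene at 95% identity or more.

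**Figure D5:**
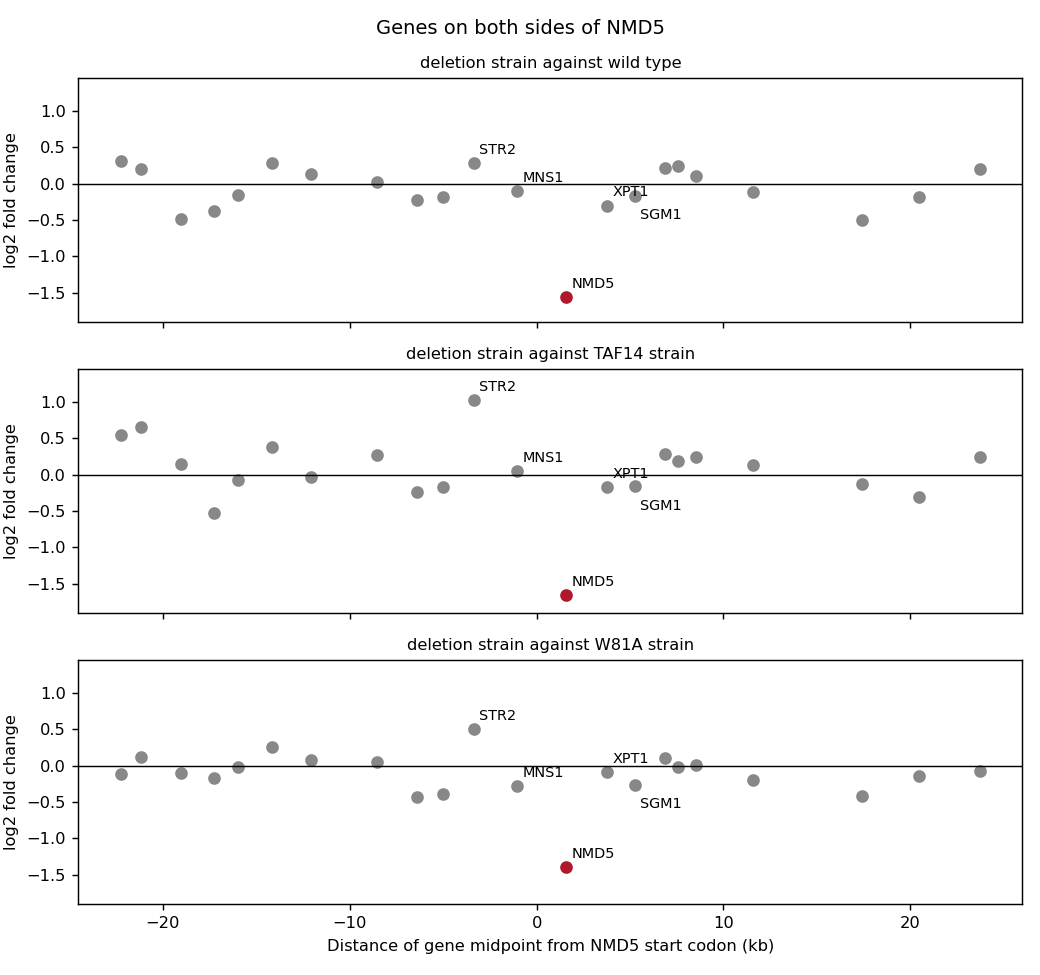
Log2 fold change of each tested gene within 25 kb of the NMD5 start codon (points) against the distance of its midpoint in kb, for the deletion strain against wild type, the TAF14 strain and the W81A strain, with NMD5 in red. NMD5 is at -1.56, -1.65 and -1.40, and the lowest of the 21 other genes is at -0.503 against wild type and -0.435 against the W81A strain.

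Tested genes with a standard name and a mean of at least 3 log2 CPM, 4806 in all, were compared with NMD5. The 5 whose pattern over the 12 libraries was most like that of NMD5 were chosen by the root-mean-square distance of centred log2 CPM. They were the adenine deaminase gene AAH1 (distance 0.166), the decarboxylase gene FDC1 (0.198), the nicotinic acid permease gene TNA1 (0.21), MIX23, of a mitochondrial protein (0.214), and the ferric reductase gene FRE1 (0.232). AAH1 read 109, 106 and 106 CPM in the deletion strain, 217, 200 and 217 in the W81A strain, 257, 268 and 268 in the TAF14 strain, and 253, 249 and 244 in wild type, which is the order of groups seen for NMD5. All 5 were called lower in the 3 deletion comparisons, which their choice as like NMD5 makes a description. None of the 15 importin-family genes other than NMD5 was among them.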

How the data were processed

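The deposited values were counts of reads per gene, which the authors made from 12 libraries. Per the labels' protocols, RNA was extracted with phenol and chloroform, treated with DNase and made into stranded TruSeq libraries after Ribo-Zero Gold. TopHat2 2.0.14, SAMtools 0.1.19, HTSeq 0.6.1p1, DESeq2 1.8.1 and sacCer3 are named per the submitters' processing notes; strand setting and annotation are not given in the sources used here.

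All 12 columns were matched to samples. In R 4.3.3, edgeR 4.0.16 fitted 1 quasi-likelihood model of 4 groups with trimmed mean of M-values scaling and the default filter, which removed 774 of 6692 entries. P-values were adjusted by Benjamini-Hochberg over 5918 genes in each comparison, and called below 0.05. The biological coefficient of variation was 8.59%. Standard errors came from the F statistic. The fit was tested on simulated data. CPM is the count over the scaled library size, with mean ± SD.

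Sequences and positions came from RefSeq R64, matched by locus tag for 6008 entries. Near copies were searched with blastn 2.17.0+. The members and lists were chosen with earlier results of these data known. Named genes were the members, the 5 other importin-beta genes, and listed Ran cycle and cargo genes called in a deletion comparison. They were also the 2 nucleoporins of smallest p per comparison, the neighbours, and the 5 genes most like NMD5. Not every comparison of a named gene is given. DST1, NUP2, IML1 and YJR128W were named after their values were seen. Alternatives were relative log expression scaling, DESeq2 1.42.0, no filter, 6 libraries alone, chromosome XII left out, a replicate block and each library left out.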

Additional observations from a re-analysis of the deposited data

How the results depend on the processing

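NMD5 kept its direction in all 72 values with a library left out and all 36 under the other alternatives, over the 6 comparisons. In the deletion strain it ranged from -1.585 to -1.523 against wild type, -1.668 to -1.621 against the TAF14 strain and -1.412 to -1.36 against the W81A strain with each library left out. Counts of called genes stayed within 1.5 times of those reported in 5 comparisons. The exception was the TAF14 strain against wild type: 998 genes, 432 with its 6 libraries alone, and 559 (without wild type replicate 1) to 1385 (without TAF14 replicate 2) with a library left out. Pairing of the samples by replicate number was not clear: 3 of 18 same-numbered pairs had a correlation above 0.1 and 7 matched their own number best. All pairs of the TAF14 strain with wild type were among the 7 (correlations from 0.0619 to 0.156). With 3 libraries per group such weak correlations cannot decide whether samples were paired. With the replicate block the counts in the 6 comparisons were 2872, 2907, 2647, 1915, 1599 and 942, against 2891, 2893, 2677, 1954, 1611 and 998 without it, and the calls of SXM1 in the deletion strain against the W81A strain (edgeR adjusted p = 0.066) and KAP114 between the W81A and TAF14 strains (edgeR adjusted p = 0.0505) were lost. Of the listed genes other than NMD5, none reversed a call. With a library left out, 206 of their values lost a call and 64 gained one; under the other alternatives 40 lost and 48 gained one. The cause was not tested. All errors rest on 3 libraries per group.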

Other observations

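Which genes were most like NMD5 depended on the measure. By correlation of log2 CPM over the 12 libraries the 5 most alike were URK1, AAH1, PLB3, TAF14 and POL5, and 1 of them, AAH1, was also among the 5 by distance. No correlation is given, because the NMD5 values fall into separate low and high clusters of libraries. By distance without TAF14 replicate 2, 4 of the 5 genes were shared, with RPL8A in place of FRE1.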
